A study of Mus musculus with 6 samples.

Results

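The genes described here are 9 genes of epithelial cells, which encode an adhesion protein, tight junction proteins, a pair of keratins and a regulator of splicing. They are *Epcam*, the claudin genes *Cldn3*, *Cldn4*, *Cldn6* and *Cldn7*, *Ocln*, *Esrp1*, and the keratin genes *Krt8* and *Krt18*. They were named as a set and found by gene symbol in a gene-level RNA-Seq table of 41945 loci, where each of the 9 has a single entry. All 9 were among the 14926 loci that carry a gene symbol, reach at least 1 FPKM (read fragments scaled to transcript length and to the size of the library) in either genotype and are above 0 FPKM in both.

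The table compares motor neurons (MNs) derived from 2 lines of mouse embryonic stem cells (mESCs), the Hb9 control line (control MNs) and the A2 SMA line (SMA MNs), with 3 samples per genotype. Both lines come from mice of the FVB/N background that carry the human *SMN2* transgene (*SMN2*+/+) and an eGFP reporter under the Hb9 promoter. The Hb9 line, whose genotype the labels give as wildtype, has intact mouse *Smn*, whereas A2 lacks it (SMN2+/+;mSmn-/-) and models severe spinal muscular atrophy. Embryoid bodies of both lines received 1 µM retinoic acid and 1 µM Smoothened agonist for 5 days, and GFP-positive cells were then sorted. Each genotype is represented by 1 mESC line, so genotype and line cannot be told apart.

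Epithelial cells are held together by adherens junctions, desmosomes and tight junctions. Claudins form the sealing strands of tight junctions, occludin is a further membrane protein of the same strands, and keratins 8 and 18 pair to form the intermediate filaments of simple epithelia. Undifferentiated mESCs grow as compact, E-cadherin-bound colonies and express many of these genes, whereas cells of the neural lineage lose E-cadherin and Epcam as they differentiate and gain N-cadherin and vimentin.

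The table gives 1 FPKM value per genotype, computed by the authors over the 3 samples. No SD, confidence interval or test of a difference could therefore be computed here, and the number of reads behind a gene's value is unknown, because the table gives no counts. Levels and ratios are given as descriptions, and "2-fold" marks a size and not a significance call. *Smn1*, the targeted gene, was at 137 FPKM in control MNs and at 5.26 FPKM in SMA MNs, in the direction of the labels. Over the 14926 loci the median log2 ratio of A2 SMA over Hb9 control was -0.29, so ratios are also given relative to this median gene.

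Of the 9 genes, 8 were higher in SMA MNs and 1, *Cldn3*, was lower, compared with 34.1% and 65.9% of the 14926 loci. At least 2-fold higher were 5 of the 9, compared with 6.83% of the 14926 loci, and *Cldn3* was more than 2-fold lower, as were 22.4% of the loci. *Cldn6*, *Cldn7* and *Ocln* lay between these limits. The median log2 ratio was 1.02 over the 9 genes and 1.31 relative to the median gene, where the same 8 genes remained above 0 and *Cldn3* below it. Relative to the median gene, 5 genes were again at least 2-fold higher, as were 10.4% of the loci, and none was 2-fold lower, as were 16.5%. At a limit of 1.5-fold the count was also 5 (12.7% of the loci), with *Ocln* just short of it. Their summed level was 166 FPKM in control MNs and 300.2 FPKM in SMA MNs, a 1.81-fold difference.

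**Figure D1:**
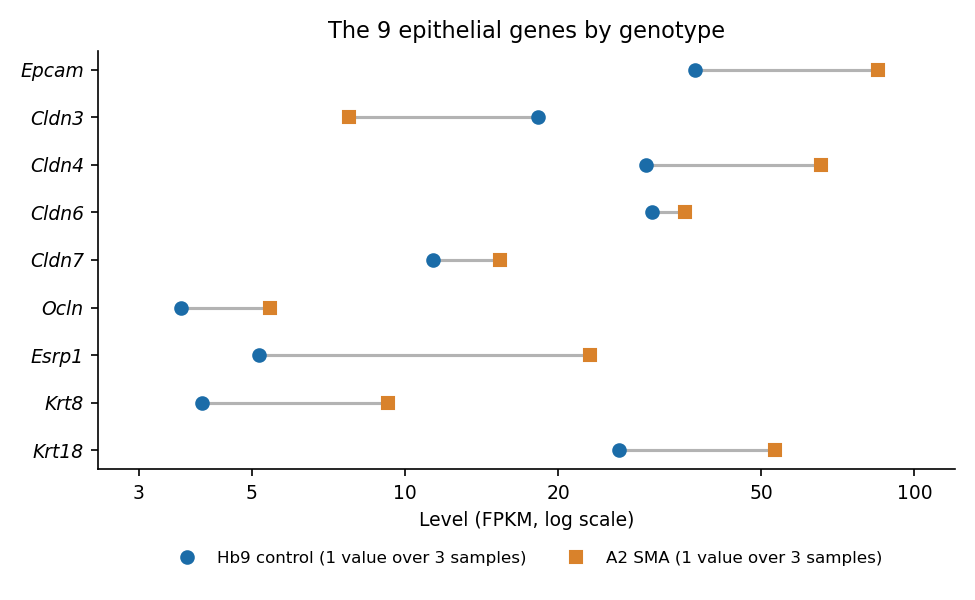
Level of the 9 genes in Hb9 control (circles) and SMA MNs (squares), in FPKM on a log axis, with 1 value per genotype over 3 samples and therefore no error bars. The squares lie to the right of the circles for 8 genes, and for *Cldn3* the square, at 7.75 FPKM, lies to the left of the circle, at 18.2 FPKM.

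*Epcam* encodes a cell surface adhesion protein of epithelia and of pluripotent stem cells. Its level was 37.01 FPKM in control MNs and 84.8 FPKM in SMA MNs, the highest of the 9 genes in both genotypes. The log2 ratio was 1.196 (2.29-fold), and 5.30% of the loci had a higher ratio. The control MNs were not devoid of the transcript, since 70.4% of the loci had a lower level than *Epcam* in that genotype. In SMA MNs this share was 90.3%. Cuffdiff gave *Epcam* the status FAIL, which marks a locus whose comparison the program could not complete although levels are listed. The status was shared by 14.0% of the loci. Its region spans 88035283 to 88050446 on chromosome 17 (NCBI m37, the build of all positions in the table).

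*Esrp1*, which encodes an epithelial regulator of alternative splicing, had the largest difference of the 9 genes. It was at 5.16 FPKM in control MNs and 23.1 FPKM in SMA MNs, a log2 ratio of 2.16 (4.47-fold). Only 1.42% of the loci had a higher ratio. *Esrp1* was the single gene of the 9 that differed by more than 4-fold, as did 1.80% of the loci in the same direction. *Esrp1* also has the status FAIL, and the region given for it (chromosome 4 from 11188462 to 11313930) is shared with *Dpy19l4* and 2 other loci. *Dpy19l4* had an entry of its own at 22.2 and 14.2 FPKM, the opposite direction. Its paralog *Esrp2*, named here after its values were seen, was at 1.68 FPKM in control MNs and 5.66 FPKM in SMA MNs, a log2 ratio of 1.76.

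The keratin partners differed by similar factors. *Krt8*, which encodes the type II keratin of the pair, was at 3.9996 FPKM in control MNs and 9.26 FPKM in SMA MNs (log2 ratio 1.21). *Krt18*, which encodes the type I partner, was at 26.3 and 53.3 FPKM (log2 ratio 1.02), just past the 2-fold limit at 2.03-fold. *Krt18* thus exceeded *Krt8* in FPKM by 6.56-fold in control MNs and by 5.76-fold in SMA MNs.

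The 4 claudin genes differed among themselves in direction. *Cldn4* was at 29.7 FPKM in control MNs and 65.7 FPKM in SMA MNs, a log2 ratio of 1.14. *Cldn7*, whose protein associates with Epcam at the membrane, was at 11.4 and 15.4 FPKM (log2 ratio 0.44). *Cldn6*, a claudin of early embryonic epithelia, was at 30.6 and 35.5 FPKM (log2 ratio 0.22), the smallest difference of the 9 genes. *Cldn3* was lower in SMA MNs, at 18.2 FPKM in control MNs and 7.75 FPKM in SMA MNs, a log2 ratio of -1.23 (2.35-fold lower). Set against the median gene, *Cldn3* had a log2 ratio of -0.94, which is less than 2-fold. *Epcam* exceeded *Cldn7* by 3.26-fold in control MNs and by 5.51-fold in SMA MNs.

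*Ocln*, the gene of occludin, had the lowest level of the 9 genes in both genotypes, at 3.63 FPKM in control MNs and 5.43 FPKM in SMA MNs. The log2 ratio was 0.58 (1.49-fold), and 12.8% of the loci had a higher one.

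**Figure D2:**
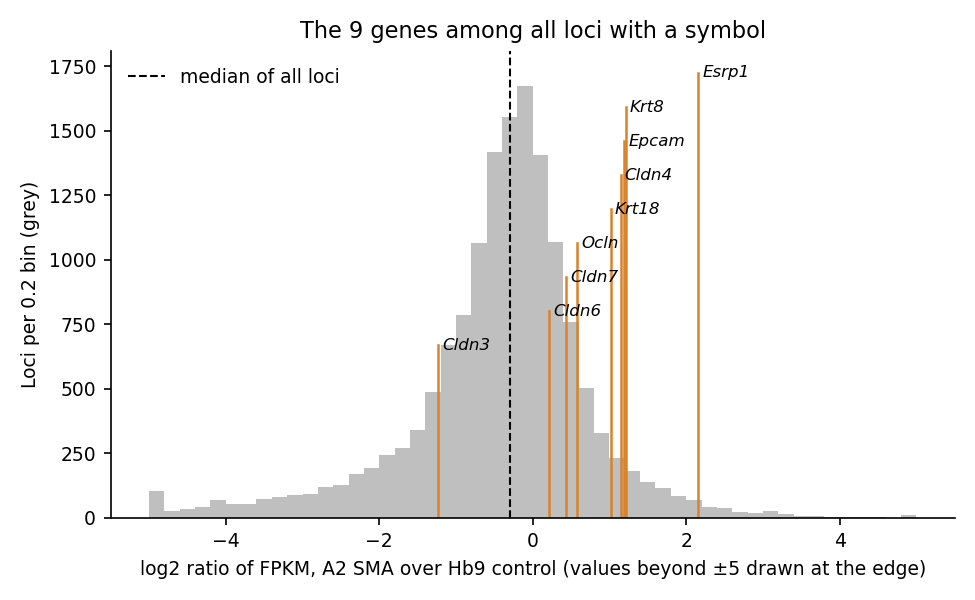
Distribution of the log2 ratio of FPKM, A2 SMA over Hb9 control, over 14926 loci (grey bars, number of loci per bin), with the 9 genes as lines of arbitrary height and the median of all loci dashed. *Cldn3* lies left of the median at -1.23, *Cldn6*, *Cldn7* and *Ocln* lie on its right shoulder, and *Krt18*, *Cldn4*, *Epcam*, *Krt8* and *Esrp1* lie at 1.02 or more.

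*Cldn3* and *Cldn4* are neighbours on chromosome 5, and so are *Krt8* and *Krt18* on chromosome 15. The region of *Cldn4* (135420996 to 135422804) and that of *Cldn3* (135462084 to 135477220) are 39279 bp apart. *Cldn4* exceeded *Cldn3* by 1.63-fold in control MNs and by 8.48-fold in SMA MNs. The region of *Cldn3* spans 15137 bp, against 1259 bp for the gene in the GENCODE annotation of another build. This region is shared with *Wbscr25*, but *Wbscr25* was at no more than 0.101 FPKM in either genotype. The keratin genes (101827135 to 101834773 for *Krt8*, 101858647 to 101862457 for *Krt18*) are 23873 bp apart and differed in the same direction. Promoter sequences of the claudin pair are shown because its genes differed in direction, and that of *Epcam* because it was the most abundant of the 9. Each is the 250 bases before the RefSeq transcription start in GRCm38.p6, written along the strand of the gene. Capitals mark the E-box letters CACCTG or their reverse complement CAGGTG, the core to which Snail and Zeb repressors are known to bind in the promoter of *Cdh1*. The sequences are as follows.
Cldn4 (chr5:134946935-134947184, minus strand): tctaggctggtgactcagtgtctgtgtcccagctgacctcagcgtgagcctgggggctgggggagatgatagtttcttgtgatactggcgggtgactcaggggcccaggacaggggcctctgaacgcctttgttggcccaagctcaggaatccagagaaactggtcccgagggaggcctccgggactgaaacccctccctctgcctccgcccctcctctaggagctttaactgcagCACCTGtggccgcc
Cldn3 (chr5:134985964-134986213, plus strand): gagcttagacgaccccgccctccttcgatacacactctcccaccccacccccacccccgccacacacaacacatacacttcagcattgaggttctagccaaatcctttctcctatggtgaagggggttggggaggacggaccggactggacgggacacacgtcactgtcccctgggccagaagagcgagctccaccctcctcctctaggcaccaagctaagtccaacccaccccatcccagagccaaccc
Epcam (chr17:87635729-87635978, plus strand): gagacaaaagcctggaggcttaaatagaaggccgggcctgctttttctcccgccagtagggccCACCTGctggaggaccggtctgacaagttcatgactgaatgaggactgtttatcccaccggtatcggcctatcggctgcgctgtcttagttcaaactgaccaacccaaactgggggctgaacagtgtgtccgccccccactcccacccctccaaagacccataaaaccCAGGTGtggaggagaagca

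The E-box letters lay 14 bases before the start of *Cldn4*, counted from the first letter of the match, and 187 and 19 bases before that of *Epcam*. They were not among the 250 bases before *Cldn3*. Of the 9 genes 8 have a promoter in the RefSeq table (10 promoters in all), and 7 of these genes hold the letters in at least 1 promoter, *Cldn3* being the exception. The letters are held by 19.4% of all 27025 genes with a promoter there and by 17.2% of all 32851 promoters. *Krt8* held them 111 and *Krt18* 214 bases before the RefSeq start. *Cldn7* and *Ocln* have more than 1 promoter and hold the letters in only one of them. The letters AACCGGTT, which Grainyhead-like factors are known to bind, were in none of the 10 promoters and in 0.116% of all promoters. A match of letters is a description of the sequence and not a measurement of binding.

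The claudin and keratin families were read as a whole to place these genes. Of 27 genes named as claudins, 9 reached 1 FPKM in either genotype, including all 4 described here. In control MNs the most abundant were *Cldn25* (82.1 FPKM) and *Cldn12* (43.1 FPKM), and 3 claudins exceeded *Cldn4* (29.7 FPKM). In SMA MNs *Cldn4* was the first, *Cldn25* was at 43.5 FPKM and *Cldn12* at 23.1 FPKM. The summed level of the family was 225 FPKM in control MNs and 197 FPKM in SMA MNs, of which *Cldn3*, *Cldn4*, *Cldn6* and *Cldn7* together made 40.0% and 63.1%. *Cldn11*, a claudin of oligodendrocytes and Sertoli cells, was at 3.68 and 0.893 FPKM, and *Cldn5*, the claudin of endothelium, was at 2.01 and 0.715 FPKM. *Cldn9*, whose region starts 138 bp after that of *Cldn6*, was at 0.631 and 1.72 FPKM.

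Of 46 genes named Krt and a number, 8 reached 1 FPKM in either genotype. *Krt19*, a further keratin of simple epithelia, was the most abundant in both genotypes, at 42.4 FPKM in control MNs and 67.0 FPKM in SMA MNs (log2 ratio 0.66). *Krt7* was at 3.36 and 14.0 FPKM (log2 ratio 2.06). *Krt42* was at 0.137 and 3.28 FPKM and *Krt17* at 0.277 and 1.10 FPKM. Lower in SMA MNs were *Krt20* (3.25 and 2.69 FPKM) and *Krt10* (1.81 and 1.18 FPKM), although *Krt20* was level with the median gene (0.018 relative to it). Of the keratins of stratified epithelium, *Krt10* was the one above 1 FPKM in the list of surface ectoderm and stratified epithelium markers, and *Krt5*, *Krt14*, *Krt15* and *Krt1* were each below 1 FPKM in both genotypes.

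**Figure D3:**
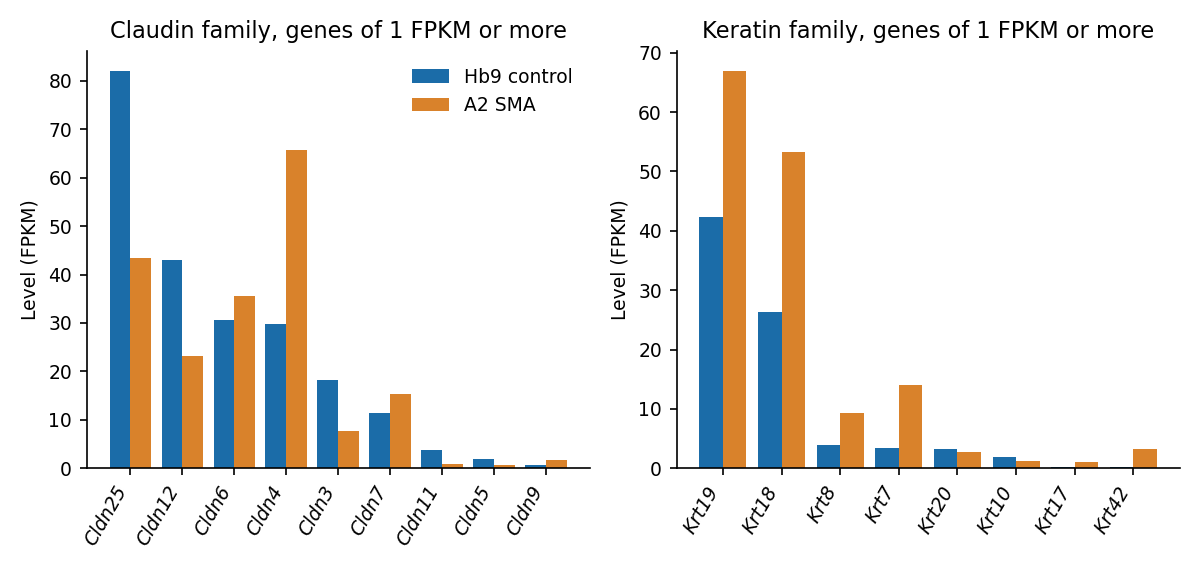
Levels in FPKM of the claudins (left) and keratins (right) that reach 1 FPKM in either genotype, with 1 bar per genotype and no error bars because the table gives 1 value per genotype. *Cldn4* is exceeded by 3 other claudins in control MNs and by none in SMA MNs, and *Krt19* and *Krt18* lead the keratins in both.

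Other epithelial genes were taken from lists written from general knowledge. Of 8 regulators of the epithelial state above the filter, 7 were at least 2-fold higher in SMA MNs, the exception being *Ovol1* (1.01 and 1.16 FPKM), and their median log2 ratio was 1.57. *Elf3*, an epithelial ETS factor, was at 17.2 FPKM in control MNs and 54.7 FPKM in SMA MNs. *Grhl3*, a Grainyhead-like factor, was at 5.05 and 17.0 FPKM, and its relative *Grhl1* was at 0.817 and 3.18 FPKM. *Rbm47*, an RNA-binding protein gene of epithelia, was at 5.99 and 16.7 FPKM. *Elf3*, *Grhl3* and *Rbm47* have the status FAIL, and the median without such genes was 1.27. Of 12 other epithelial membrane and trafficking genes, 5 were at least 2-fold higher and 2 at least 2-fold lower, with a median log2 ratio of 0.90. Relative to the median gene 9 of the 12 were at least 2-fold higher and 2 lower. Among them *Llgl2*, a basolateral polarity gene, was at 84.1 and 194 FPKM, and *Ezr*, which links the membrane to actin, was at 85.6 and 147 FPKM. *Cdh3*, the gene of P-cadherin, had the largest difference of the list, from 2.73 to 12.99 FPKM. The 2 lower genes, named after their values were seen, were *Muc1* (6.56 and 1.61 FPKM) and *Myo5b* (9.27 and 3.18 FPKM).

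Genes of the junctions themselves were read in 3 lists. Among 24 other tight junction and polarity genes, 4 were at least 2-fold higher in SMA MNs and 4 at least 2-fold lower, with a median log2 ratio of 0.21. This even split did not hold relative to the median gene, where 7 were at least 2-fold higher and 2 lower. *Cgnl1*, a cingulin-like junction protein gene, was at 7.49 and 25.2 FPKM. *F11r*, the gene of junctional adhesion molecule A, was at 50.7 and 89.9 FPKM, *Prkci* at 67.4 and 106 FPKM and *Pard3* at 88.1 and 67.9 FPKM. The 4 lower genes, named after their values were seen, were *Jam3* (76.3 and 28.6 FPKM), *Cxadr* (24.2 and 9.48 FPKM), *Pard6g* (20.3 and 8.76 FPKM) and *Pard6a* (18.6 and 8.88 FPKM). Of these, *Jam3* and *Cxadr* remained 2-fold lower relative to the median gene. Of 9 adherens junction genes above the filter 1 was at least 2-fold higher and 2 lower, with a median log2 ratio of 0.22, and the counts were the same relative to the median gene. The one that was higher is *Cdh1*, the gene of E-cadherin, at 39.7 FPKM in control MNs and 99.3 FPKM in SMA MNs. The lower ones were the nectin genes *Pvrl1* (18.9 and 6.80 FPKM) and *Pvrl3* (100.2 and 38.7 FPKM, status FAIL). *Ctnnb1*, at 1540 and 1603 FPKM, was the most abundant. Of 7 desmosome genes above the filter 1 was at least 2-fold higher, *Dsg2* (6.99 and 19.1 FPKM), and none was 2-fold lower, while 6 of the 7 were above 0, as were 34.1% of all loci. Relative to the median gene 3 were at least 2-fold higher and none lower. The desmosomal plakophilins *Pkp3* and *Pkp2* were at 12.7 and 21.1 FPKM and at 27.7 and 38.5 FPKM, the second with the status FAIL.

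**Figure D4:**
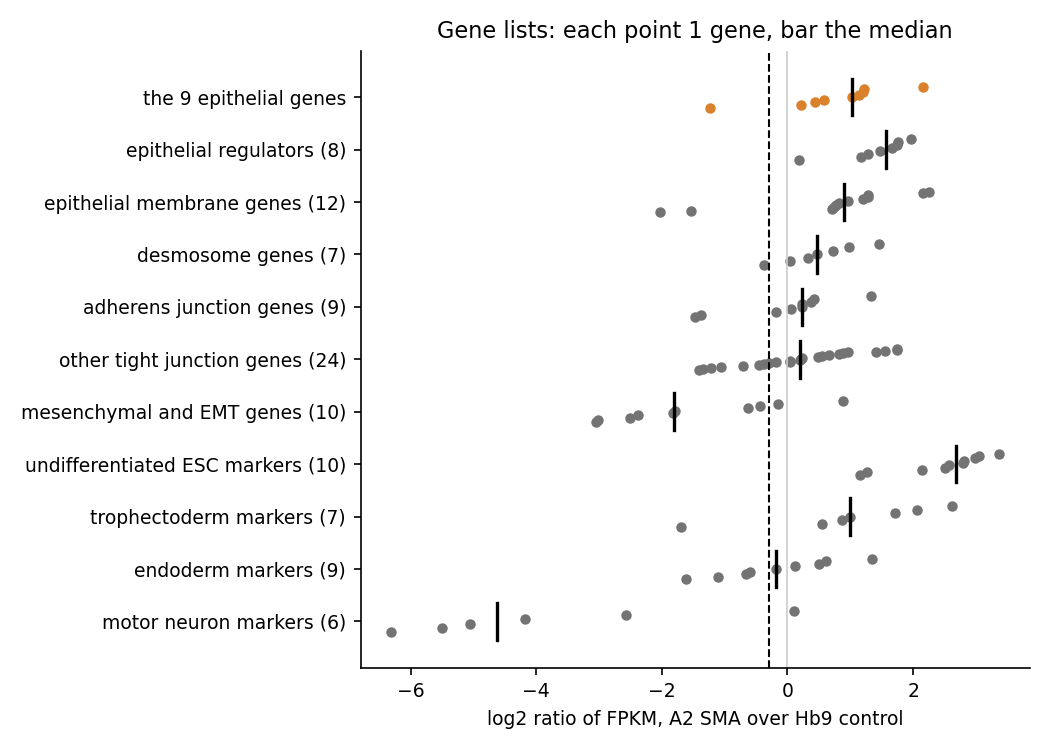
Log2 ratio of FPKM, A2 SMA over Hb9 control, for each gene above the filter (points) in the lists, with the number of genes in parentheses, the median of each list as a bar, and the median of all loci dashed at -0.29. Farthest to the right of 0 is the median of the undifferentiated mESC markers (2.69). Those of the regulators (1.57), the 9 epithelial genes (1.02), the trophectoderm markers (1.00) and the epithelial membrane genes (0.90) follow. The desmosome (0.47), adherens junction (0.22) and other tight junction (0.21) medians are also above 0. Those of the endoderm markers (-0.18), the mesenchymal list (-1.80) and the MN markers (-4.62) lie to the left.

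Of 10 genes of the opposite, mesenchymal programme above the filter, 9 were lower in SMA MNs, as were 65.9% of all loci. At least 2-fold lower were 6, against 22.4% of the loci, and none was 2-fold higher, with a median log2 ratio of -1.80. Relative to the median gene 6 were again 2-fold lower and 1, *Fn1*, was 2-fold higher. *Zeb2*, a repressor of *Cdh1*, was at 44.1 FPKM in control MNs and 5.31 FPKM in SMA MNs. Its paralog *Zeb1*, named after its values were seen, was at 48.6 and 14.1 FPKM. *Cdh2*, the gene of N-cadherin, was at 82.0 and 14.4 FPKM, so that *Cdh2* exceeded *Cdh1* by 2.07-fold in control MNs and *Cdh1* exceeded *Cdh2* by 6.89-fold in SMA MNs. *Vim* was at 1436 and 178 FPKM. *Snai1*, also named after its values were seen, was at 9.42 and 8.45 FPKM, and the fibronectin gene *Fn1* was higher in SMA MNs (74.5 and 138 FPKM, status FAIL). Several of these genes are expressed in neurons or neural progenitors as well as in mesenchyme.

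Markers of other cells that the sorted population could hold also differed between the genotypes. In bulk samples, more cells of a type and more RNA per cell cannot be told apart. Of 10 markers of undifferentiated mESCs all were at least 2-fold higher in SMA MNs, none was at 0, and their summed level was 285 FPKM in control MNs and 1853 FPKM in SMA MNs, 6.502-fold against 1.81-fold for the 9 genes. *Pou5f1* was at 98.3 and 775 FPKM, and *Tdgf1* had the largest difference of the list, from 10.2 to 105 FPKM, with the status FAIL. Among 7 trophectoderm markers above the filter, 3 were at least 2-fold higher and 1 lower, with sums over all 8 of 47.9 and 121 FPKM. Relative to the median gene 5 of the 7 were at least 2-fold higher and 1 lower. *Tfap2c*, an AP-2 transcription factor gene, was at 11.1 and 68.0 FPKM, the largest difference of the list, and has the status FAIL. The other higher genes were *Krt7*, described above, and *Eomes* (1.35 and 4.44 FPKM), named after its values were seen. *Gata3* was lower in SMA MNs (15.8 and 4.86 FPKM), and *Hand1*, also of status FAIL, was at 14.7 and 26.7 FPKM. The defining genes *Cdx2* (0.249 and 0.514 FPKM) and *Elf5* (0.515 and 1.03 FPKM) were at low levels in both genotypes. Primitive and visceral endoderm markers summed to 135 and 88.4 FPKM, with 1 of 9 at least 2-fold higher and 2 lower (1 and 1 relative to the median gene). Of 8 fibroblast markers 5 were at least 2-fold lower and 1 higher (2 and 1 relative to the median gene), with sums of 69.6 and 36.6 FPKM. Only 1 of 8 surface ectoderm and stratified epithelium markers was above the filter, and all 8 summed to 3.43 and 2.10 FPKM. Of 6 endothelial markers 2 were at least 2-fold higher and 2 lower (3 and 2 relative to the median gene), and *Pecam1* made most of their sums of 31.4 and 78.2 FPKM. Among 6 MN markers above the filter 5 were at least 2-fold lower, with *Isl1* at 108 and 5.95 FPKM, *Lhx3* at 27.6 and 0.348 FPKM and *Chat* at 15.5 and 0.344 FPKM, while *Mnx1* was at 41.2 and 44.2 FPKM. All 9 pan-neuronal markers were at least 2-fold lower. The part of these markers in the levels of the 9 genes was not tested.

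The chromosomal surroundings of the 9 genes were read from the positions in the table. Within 100 kb they have 50 neighbours of at least 1 FPKM that are not among the 9, with a median log2 ratio of -0.18. Of these neighbours 4 were at least 2-fold higher in SMA MNs and 12 at least 2-fold lower (6 and 8 relative to the median gene), shares close to the 6.83% and 22.4% (10.4% and 16.5%) of all loci. The 4 were *Cldn9*, *Mmp25* and *Zscan10* near *Cldn6* and *SCARNA20* near *Cldn3*. *Esrp1* exceeded all 6 of its neighbours, whose log2 ratios lay between -0.64 and 0.052. *Krt8* and *Krt18* share 3 other neighbours, between -0.21 and 0.49. *Cldn4* exceeded all 5 of its neighbours, 4 of which, *Cldn3* included, were below 0. The 10 neighbours of *Cldn3* had log2 ratios from -2.13 to 1.23, with a median of -0.18. The nearest were *Abhd11* (50.6 and 44.8 FPKM) and *2010001M06Rik* (19.4 and 6.89 FPKM), both 7801 bp away and of status FAIL. *Stx1a*, which encodes the neuronal syntaxin 1A and was named after its values were seen, is 22131 bp from *Cldn3*. It was at 22.1 FPKM in control MNs and 6.62 FPKM in SMA MNs.

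**Figure D5:**
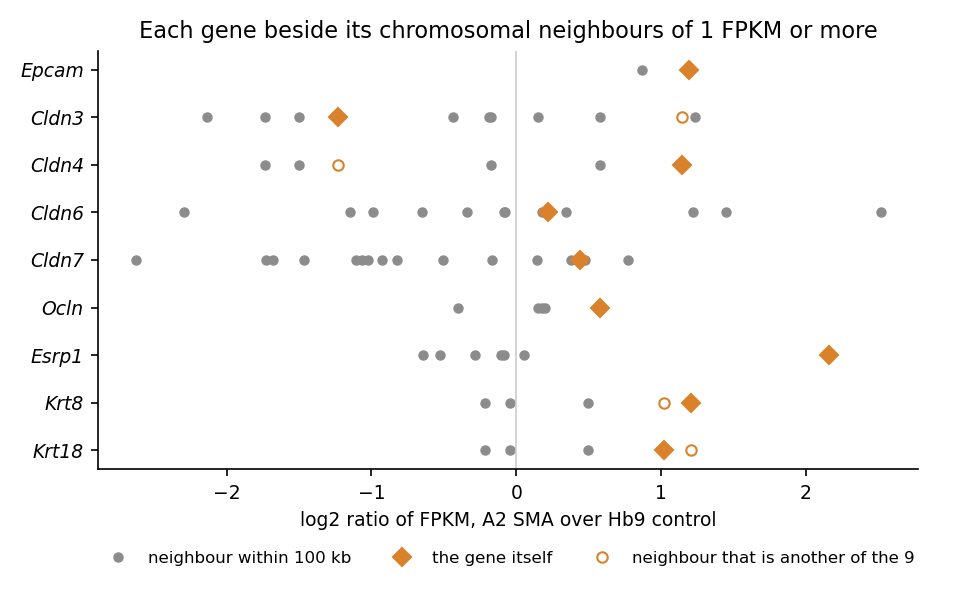
Log2 ratio of FPKM, A2 SMA over Hb9 control, of each of the 9 genes (diamonds) and of the genes of at least 1 FPKM within 100 kb of it (circles, open where the neighbour is another of the 9). *Esrp1* at 2.16 stands clear of its neighbours, and *Cldn3* at -1.23 lies below 7 of its 10 neighbours, among them *Cldn4* at 1.14.

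*Ocln* lies on the chromosome that carries the targeted *Smn1* gene. It occupies 101266462 to 101322673 on chromosome 13 and starts 358816 bp after the end of *Smn1*. Only 1 of 7 loci with a symbol between them, *Gtf2h2*, reached 1 FPKM, at 60.2 FPKM in control MNs and 45.5 FPKM in SMA MNs. *Marveld2*, which encodes tricellulin, a relative of occludin at contacts of 3 cells, is the next gene of 1 FPKM or more after *Ocln*, 43238 bp away, and was at 3.78 and 4.34 FPKM (log2 ratio 0.20). On the other side of *Smn1*, *Serf1* was at 27.0 and 6.77 FPKM.

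With 2 values per gene, likeness to *Epcam* can be read only as a distance between pairs of levels. The 5 nearest loci by Euclidean distance in log2 FPKM over both genotypes were *Nop2* (39.0 and 84.4 FPKM), *Avpi1* (39.2 and 82.3 FPKM), *Ptgr1* (37.7 and 79.7 FPKM), *Ppat* (34.4 and 81.1 FPKM) and *Syce2* (36.4 and 77.1 FPKM). In all, 104 loci lay within a distance of 0.5, so closeness by this measure is common.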

How the data were processed

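RNA of FACS-collected MNs (3 Hb9 control and 3 A2 SMA samples) was sequenced as single-end reads. Reads were checked with FastQC 0.10.1, trimmed with CutAdapt, mapped with TopHat 2.04 to NCBI m37 with the Ensembl annotation, assembled with Cufflinks and compared with Cuffdiff. The FPKM values were deposited by the authors as 1 value per genotype over its 3 samples, with a status for each locus. The table's columns of fold change, test statistic, p and q hold the authors' own comparison and were not used. No test, error, leave-one-out or paired value could be computed, and the number of reads behind each gene's value is unknown.

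With Python 3.11.15, numpy 2.4.6 and pandas 2.3.3, the gene column was split at commas, and each symbol took its entry with the highest FPKM. Log2 ratios (A2 SMA over Hb9 control, no pseudocount) used loci of at least 1 FPKM in either genotype and above 0 FPKM in both. This processing was tested on simulated data. Start positions in the table count from 0 and were raised by 1. Figures were drawn with matplotlib 3.10.9. Promoters are RefSeq's (GRCm38.p6), joined by symbol, and *Esrp1* was not among them. *Slc18a3*, *Tubb3* and *Map2* were not analysed here. A further gene list is not reported here. The members and lists were chosen with earlier results of these data known. Genes named are the 9, every claudin and keratin of at least 1 FPKM, nearest neighbours, and from each list up to the 3 most abundant and the 1 with the largest ratio. Other genes are named where a count of 5 or fewer or a contrast calls for it, and these were chosen after their values were seen. Alternatives were other scalings, pseudocounts, filters and fold limits, summing the entries of a symbol and leaving out the status FAIL.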

Additional observations from a re-analysis of the deposited data

How the results depend on the processing

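No paired analysis was possible because the table gives 1 value per genotype, and for the same reason no sample could be left out. The count of genes at least 2-fold higher stayed at 5 of 9 under the scalings, filters, summing and a limit of 1.5-fold, and was 4 with a pseudocount of 1 FPKM, 3 of 7 without the status FAIL (*Epcam* and *Esrp1* drop out by construction) and 1 with a limit of 4-fold. The median log2 ratio of the 9 genes ranged from 0.99 to 1.39, and that of the 7 genes without the status FAIL was 0.58. *Cldn3* stayed below 0 and the other 8 above 0 under each scaling, pseudocount and summing tried. The median of the endoderm list turned to 0.11 relative to the median gene and 0.18 with upper quartile scaling. The MN marker median moved to -3.59 with a pseudocount of 1 FPKM, and the endothelial one to 1.65 with a filter of 5 FPKM, which leaves fewer genes. No other value of 187 changed sign or moved by more than 1.5-fold. The number of reads per gene is unknown, so ratios of genes near 1 FPKM are the least certain.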
